A study of Mus musculus with 96 samples.

Results

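Wild type (WT) mouse liver was compared between ZT0 and ZT12, where zeitgeber time (ZT) counts the hours since the lights came on, so that ZT0 opens the light phase. The libraries were chosen by their labels alone, as all WT libraries taken at either time, and numbered 16 of the 96 in the series, with 8 at ZT0 and 8 at ZT12. They came from 4 WT groups of 2 libraries per time: the Bmal1 line fed ad libitum (Bmal1 WT, AL), the Bmal1 line fed only at night (Bmal1 WT, RF), the Cry1/2 line fed ad libitum (Cry1/2 WT, AL) and the Cry1/2 line fed only at night (Cry1/2 WT, RF). RF stands for night-restricted feeding, and both lines are represented here by animals that carry the normal alleles. The other 80 libraries were WT at 4 further times, or Bmal1 KO and Cry1/2 dKO (double knockout) liver under the same feedings, and the 16 knockout libraries of ZT0 and ZT12 served for comparison only. All mice were 12 to 16 weeks old, while no label states their strain or sex. The labels do not say which libraries came from which animals, so the p-values measure the spread between libraries. Each line-feeding group was a block in the model, so the ZT12 minus ZT0 difference was always taken within a line and a feeding.

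Liver is bulk tissue made mostly of hepatocytes, and its daily program combines a cell-autonomous clock with feeding and hormone signals. In the clock, BMAL1 (gene Arntl) pairs with CLOCK or NPAS2 and binds E-boxes to activate the Per, Cry, Nr1d and Dbp genes. PER and CRY proteins then inhibit that pair, REV-ERB proteins (genes Nr1d1 and Nr1d2) repress Arntl and other genes at ROR elements against the ROR activators, and DBP, TEF and HLF activate genes at D-boxes against NFIL3. A high level in bulk tissue can come from more cells of a type or from more RNA per cell, and these cannot be told apart here.

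The letters of these elements stand just before a RefSeq start of several core clock genes. RefSeq promoter windows on GRCm38.p6, read 250 bases back from the start, were matched for 16 of the 19 core clock genes (Per2 and Bhlhe40 were not among them). Windows were searched on both strands for the E-box CACGTG, the D-box TTATGTAA or TTACGTAA and the ROR element core TAGGTCA, and 7 of the 16 genes held at least 1 of them. The stretches below, with the match and up to 25 bases on each side, are those of the 6 genes with the largest change between ZT0 and ZT12 among the 7, written 5′ to 3′ on the strand of the gene with the matched letters in capitals. Ciart (chr3:95882242-95882369, minus strand) holds 3 E-boxes. Per1 (chr11:69098758-69098813, plus strand), Tef (chr15:81802521-81802576, plus strand, the first of its 2 RefSeq starts) and Bhlhe41 (chr6:145865543-145865598, minus strand) hold 1 each. The window of another Per1 start holds none. The Per1 and Tef stretches lie inside the annotated bounds of their genes. Per3 (chr4:151044791-151044895, minus strand) holds 2 D-boxes. Nfil3 (chr13:52981040-52981076, minus strand) holds a ROR element core on its opposite strand.
Ciart: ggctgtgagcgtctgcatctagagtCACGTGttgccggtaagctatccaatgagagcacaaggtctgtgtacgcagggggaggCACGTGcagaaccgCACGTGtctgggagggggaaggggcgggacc
Per1: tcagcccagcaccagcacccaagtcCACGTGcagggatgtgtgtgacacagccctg
Tef: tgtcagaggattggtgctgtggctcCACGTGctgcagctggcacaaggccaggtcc
Bhlhe41: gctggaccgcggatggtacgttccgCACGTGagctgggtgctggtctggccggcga
Per3: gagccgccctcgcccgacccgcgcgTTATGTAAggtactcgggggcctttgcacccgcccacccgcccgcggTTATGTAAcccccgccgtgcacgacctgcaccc
Nfil3: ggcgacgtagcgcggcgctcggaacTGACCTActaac

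The first 5 of these genes were higher at ZT12 and Nfil3 was higher at ZT0 (values below). The seventh gene, Cry1, holds an E-box 60 to 55 bases before its start and was higher at ZT0, so the same 6 letters stood before genes that changed in both directions. Over the 32851 RefSeq windows searched, 6.02% held the E-box, 0.93% a D-box and 2.23% the ROR element core. Windows on chr18 were left out of the search and of all shares given here. Of the genes at least 2-fold higher at ZT12 with a matched window, 27 of 206 (13.1%) held the E-box and 1 of 206 (0.49%) the ROR element core. Of those at least 2-fold higher at ZT0, 17 of 215 (7.91%) held the E-box and 10 of 215 (4.65%) the ROR element core, against 9.57% and 2.24% of all 11197 tested genes with a window. D-boxes were found in 2.91% and 1.86% of the 2 sets and in 0.82% of the tested genes with a window. These shares are descriptions of letters in a short window and were not tested.

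Total counts ran from 5029979 to 35568856 per library (median 26894375.5), and a level of 5 CPM stood for 25.2 to 180 reads, where CPM is a gene's count scaled by the library's normalised size. The first principal component held 28.5% of the variance and put all 8 ZT0 libraries on one side and all 8 ZT12 libraries on the other. On the second component (19.4%) Cry1/2 WT RF ZT12 replicate 6 stood apart, with 21910 CPM of the acute phase gene Saa1 against 27.5 to 2111 CPM in the other 15, and 108 summed CPM of 4 neutrophil markers against 0.198 to 9.45. Cry1/2 WT AL ZT12 replicate 2 held 105 CPM of the interferon-induced gene Isg15, against 2.81 to 9.7 in the others. Hepatocyte markers summed to 54010 to 122900 CPM of which Alb made up 26230 to 89030 CPM, so the markers of the labelled tissue were high in every library. Counts and list medians below are also given without these 2 libraries where that changed them by over 1.5 times.

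Of 15772 genes tested, 3225 (20.4%) differed between ZT12 and ZT0 at a Benjamini-Hochberg adjusted p under 0.05 (edgeR quasi-likelihood test), which is what "called" means below. Of these, 1635 (10.4% of genes tested) were higher at ZT12 and 1590 (10.1%) higher at ZT0. The change was at least 2-fold for 673 genes (4.27%), 296 of them higher at ZT12 and 377 higher at ZT0, and at least 4-fold for 159. The 8 ZT12 values lay wholly above or below the 8 ZT0 values for 663 genes (4.2%). The median log2 fold change over all genes tested was 0.01, with positive values meaning higher at ZT12 throughout. Of the protein-coding genes tested 21.8% were called, and of 419 lincRNAs 22.7%, with 32 higher at ZT12 and 63 higher at ZT0.

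The core clock supplied both the lowest and the highest change among the named genes. Of its 19 genes, 12 were higher at ZT12, 5 were higher at ZT0 and 2 were not called. For 14 of them the ranges of the 2 times did not overlap (background 4.2%), and the median log2 fold change was 1.11 against 0.01 for all genes. Leaving out the 2 libraries that stood apart gave the same counts, 12 and 5. Transcripts of the activators were high at ZT0, and those of their inhibitors and of the REV-ERB repressors, apart from Cry1, were high at ZT12.

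**Figure D1:**
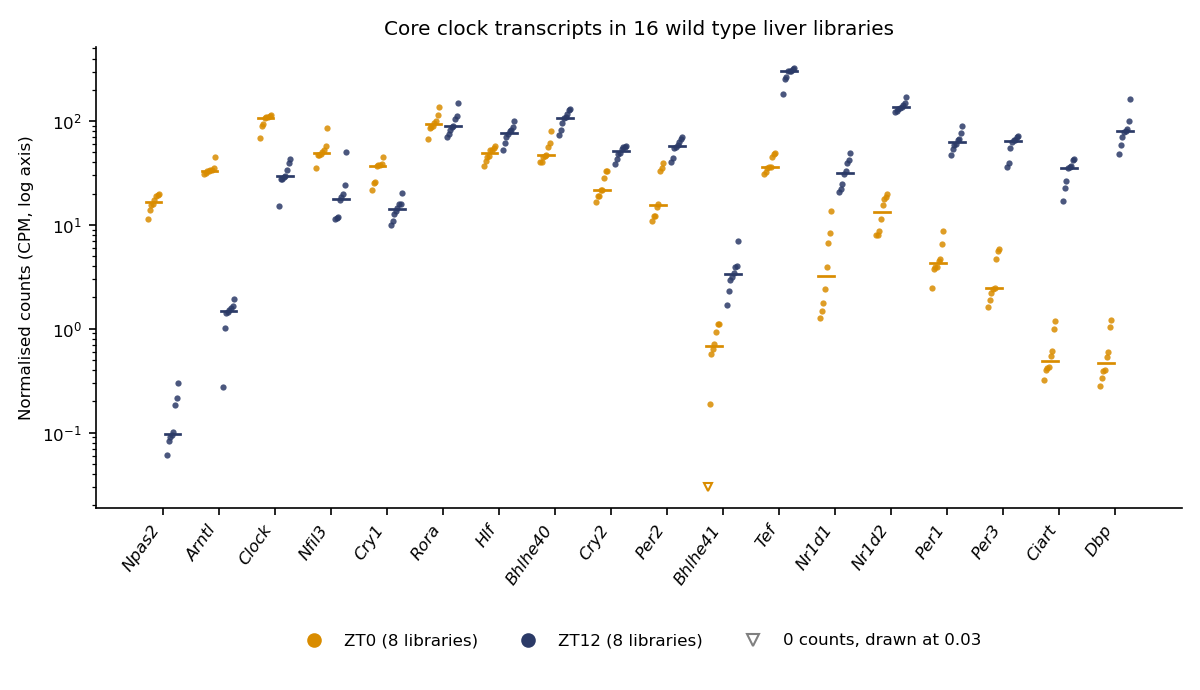
Normalised CPM (log axis) of 18 core clock genes in the 8 ZT0 (orange) and 8 ZT12 (blue) wild type libraries, ordered by log2 fold change; each point is 1 library, bars are medians, and a triangle marks 0 counts. Npas2, Arntl, Clock and Cry1 lie lower at ZT12 without overlap, Rora overlaps, and Dbp, Ciart, Per3 and Per1 rise by more than 1 step of 10 on the axis.

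Arntl (chr7:113207465-113314126, plus strand), which encodes BMAL1, ran from 30.9 to 45 CPM (median 33.2) at ZT0 and from 0.272 to 1.94 CPM (median 1.49) at ZT12. Every ZT12 library lay far below every ZT0 library (log2 fold change -4.62 ± 0.21 SE, adjusted p = 2.28e-09). Npas2 (chr1:39193731-39363236, plus strand), a partner of BMAL1, ran from 11.3 to 19.6 CPM (median 16.6) at ZT0 and from 0.0611 to 0.301 CPM (median 0.0978) at ZT12, the lowest log2 fold change among the named genes at -6.75 ± 0.20 (adjusted p = 4.77e-11). At ZT12 it was close to the detection limit in all 8 libraries. The other partner, Clock, ran from 69.3 to 115 CPM (median 108) at ZT0 and from 15.2 to 43.4 CPM (median 29.3) at ZT12 (log2 fold change -1.74 ± 0.14 SE, adjusted p = 1.13e-06), a smaller change but again with no overlap. The 3 activator transcripts were thus low together at ZT12 in both lines and under both feedings.

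Among the repressors of the pair, Per1 (chr11:69095217-69109960, plus strand) ran from 2.49 to 8.74 CPM (median 4.25) at ZT0 and from 47 to 89.1 CPM (median 63.1) at ZT12 (log2 fold change 3.77 ± 0.23 SE, adjusted p = 4.91e-08). Per3 ran from 1.61 to 5.83 CPM (median 2.45) and then from 36.4 to 72.4 CPM (median 64.3) (log2 fold change 4.28 ± 0.24 SE, adjusted p = 2.86e-08). Per2 ran from 10.8 to 39.2 CPM (median 15.5) and then from 40.7 to 70 CPM (median 57.4) (log2 fold change 1.51 ± 0.21 SE, adjusted p = 0.000152). All 3 Per genes were higher in every ZT12 library, Per2 with the narrowest gap. Ciart, which encodes the repressor CHRONO, was under 1.2 CPM in every ZT0 library. At ZT12 it ran from 16.8 to 43 CPM (median 35.6) (log2 fold change 5.84 ± 0.28 SE, adjusted p = 4.12e-09). Cry2 rose from 16.4 to 33.2 CPM (median 21.8) to 38.9 to 58.1 CPM (median 51.9) (log2 fold change 1.11 ± 0.13 SE, adjusted p = 3.66e-05). Cry1 fell from 21.4 to 45 CPM (median 37.3) to 9.95 to 20.2 CPM (median 14.1) (log2 fold change -1.21 ± 0.17 SE, adjusted p = 0.0002). The 2 Cry genes therefore moved in opposite directions, each without overlap between the times. Bhlhe41 (DEC2), at 1.7 to 6.99 CPM (median 3.33) at ZT12 and 0 to 1.12 CPM at ZT0, had a log2 fold change of 2.27 ± 0.39 (adjusted p = 0.000811). Bhlhe40 (DEC1) had one of 1.0 ± 0.15 (adjusted p = 0.0003) with 7 of 8 ZT12 libraries above all ZT0 libraries.

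In the second loop, Nr1d2, which encodes REV-ERB beta, ran from 7.92 to 20 CPM (median 13.4) at ZT0 and from 121 to 172 CPM (median 135) at ZT12 (log2 fold change 3.4 ± 0.20 SE, adjusted p = 4.91e-08). Nr1d1, which encodes REV-ERB alpha, ran from 1.28 to 13.6 CPM (median 3.19) and then from 20.7 to 49.6 CPM (median 31.9) (log2 fold change 3.04 ± 0.32 SE, adjusted p = 1.15e-05), with a wide spread among the ZT0 libraries and no overlap. Rora, which encodes an opposing activator, did not pass the test: it had a log2 fold change of -0.03 ± 0.12 (adjusted p = 0.914), and the ranges of the 2 times overlapped. So the transcripts of the repressors of ROR elements differed several-fold between the times, and no difference was detected for Rora.

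In the D-box branch, Dbp (chr7:45705088-45710203, plus strand) ran from 0.283 to 1.2 CPM (median 0.47) at ZT0 and from 47.7 to 161 CPM (median 80.1) at ZT12, the highest log2 fold change of the named genes at 7.19 ± 0.26 (adjusted p = 1.74e-10). Tef ran from 30.8 to 49.5 CPM (median 36.1) and then from 184 to 325 CPM (median 301) (log2 fold change 2.85 ± 0.12 SE, adjusted p = 1.74e-09). Hlf had a log2 fold change of 0.65 ± 0.13 (adjusted p = 0.0025). Nfil3, their repressor, ran from 35.4 to 84.9 CPM (median 48.8) at ZT0 and from 11.4 to 49.8 CPM (median 17.9) at ZT12 (log2 fold change -1.42 ± 0.26 SE, adjusted p = 0.00135), and 7 of 8 ZT12 libraries lay below all ZT0 libraries. The 3 activators were high when the repressor was low. The highest ZT12 value of Nfil3 came from Cry1/2 WT RF replicate 6, the library with the acute phase signal.

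The 2 times do not catch every gene at its daily high or low. Over the 48 WT libraries, 8 per time, Arntl had its highest mean at ZT0 (34.5 ± 4.45 CPM, SD) and its lowest at ZT12 (1.36 ± 0.51). Nr1d1 averaged 128 ± 18.1 CPM at ZT8 and 32.8 ± 10.3 at ZT12. Dbp averaged 128 ± 15.2 CPM at ZT8 against 85.3 ± 34.7 at ZT12, and Per2 averaged 119.8 ± 32.5 CPM at ZT16 against 56.9 ± 10.3 at ZT12. Cry1 averaged 54.9 ± 7.57 CPM at ZT20 against 33.6 ± 8.29 at ZT0. For Nr1d1, Dbp, Per2 and Cry1 the ZT0 to ZT12 difference is thus smaller than the daily range. Of the 1635 genes called higher at ZT12, 1085 (66.4%) had their highest WT mean at ZT12, 378 at ZT8 and 141 at ZT16. Of the 1590 called higher at ZT0, 645 (40.6%) had their highest mean at ZT0, 321 at ZT16, 310 at ZT4 and 286 at ZT20, while 1003 (63.1%) had their lowest mean at ZT12. Of all genes tested, 20.7% had their highest mean at ZT12, 11.8% their highest at ZT0 and 16.8% their lowest at ZT12, and the choice of called genes fixes part of these shares, since the ZT0 and ZT12 libraries are among the 48.

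**Figure D2:**
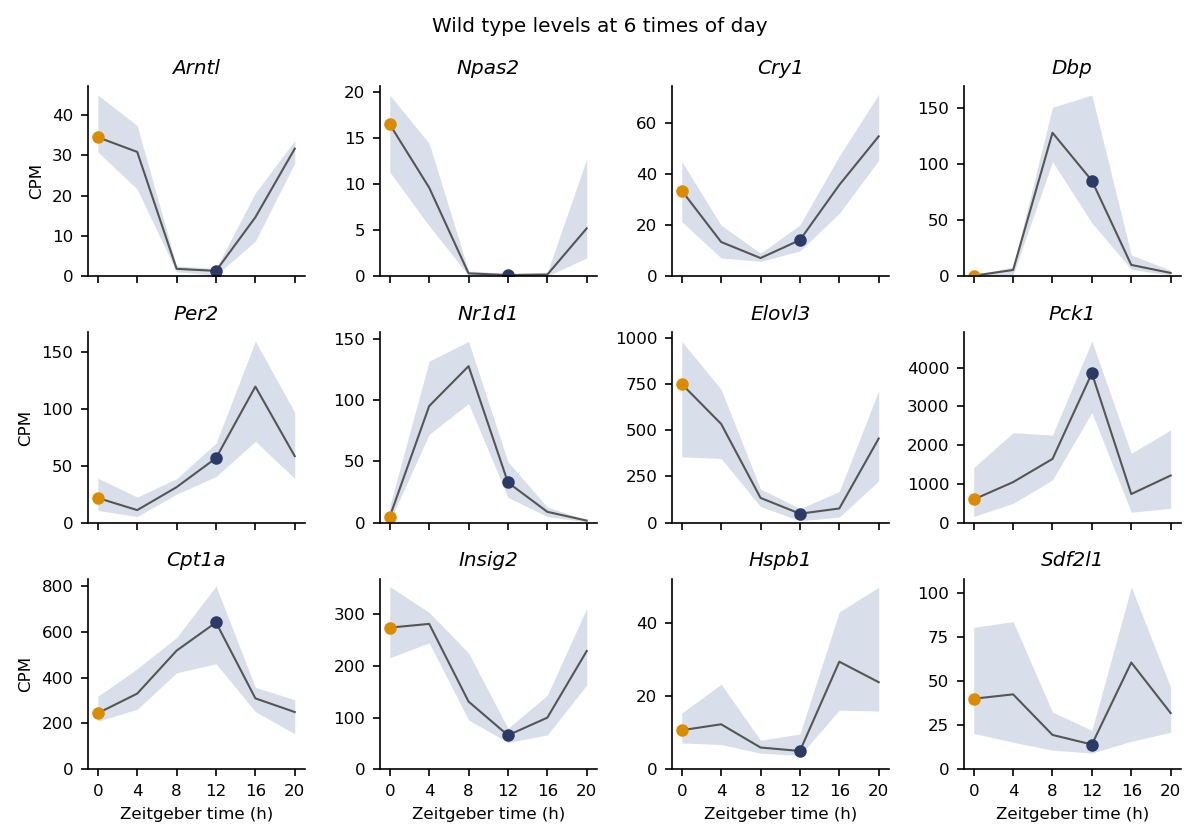
Mean normalised CPM of 12 genes in wild type liver at ZT0, 4, 8, 12, 16 and 20 h, 8 libraries per time; the shading spans the lowest to the highest library, and the orange and blue points mark ZT0 and ZT12. Arntl, Npas2, Elovl3 and Insig2 are low at ZT12, Pck1 and Cpt1a have their highest mean there, and the means of Hspb1 and Sdf2l1 are highest at ZT16.

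Outside the clock, the genes with the lowest log2 fold changes at ZT12 included metabolic enzymes of lipid and membrane synthesis. Elovl3 (chr19:46131897-46135694, plus strand), an elongase of very long chain fatty acids, ran from 356 to 980.1 CPM (median 802) at ZT0 and from 10.6 to 75.8 CPM (median 49.8) at ZT12 (log2 fold change -4.02 ± 0.32 SE, adjusted p = 8.99e-07). Chka, choline kinase alpha, which opens phosphatidylcholine synthesis, ran from 115 to 323 CPM (median 182) and then from 11.2 to 25.5 CPM (median 17.8) (log2 fold change -3.40 ± 0.21 SE, adjusted p = 5.73e-08). Tubb2a, a beta tubulin, ran from 85.9 to 180.2 CPM (median 147) and then from 7.81 to 20.7 CPM (median 10.4) (log2 fold change -3.63 ± 0.21 SE, adjusted p = 2.87e-08). None of the 3 had overlapping ranges. Clpx, the unfoldase subunit of the mitochondrial ClpXP protease, combined a large fall with a small error, from 273 to 373 CPM (median 337) to 51 to 74.9 CPM (median 58.4) (log2 fold change -2.44 ± 0.09 SE, adjusted p = 1.74e-10). Slc34a2, a sodium-phosphate cotransporter (-4.78 ± 0.46), Loxl4, a lysyl oxidase (-3.77 ± 0.28), Dhrs9, a short-chain dehydrogenase (-3.32 ± 0.28), and Dtx4, a ubiquitin ligase (-2.80 ± 0.19), also fell on the log2 scale. Each of these 4 had all 8 ZT12 libraries below all ZT0 libraries.

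Some of the largest falls sat in genes that overlap a neighbour on the opposite strand, and the strand setting of the counting is not given in the sources used here. Pitx3, a homeobox factor (-5.24 ± 0.41 log2), shares its last 10 bases with the end of Elovl3. Clic3, an intracellular chloride channel protein (-4.15 ± 0.41 log2), lies wholly within Paxx, whose own log2 fold change was -2.42. Without that setting it is not known to which gene the reads of shared bases were counted, so the values of Pitx3 and Clic3 are uncertain. The lincRNA Gm30301 (-3.25 ± 0.30 log2), the transcripts Gm45819 (4.25 ± 0.36) and Gm14097 (3.54 ± 0.30) and the gene A930033H14Rik (3.97 ± 0.27) met the same naming rule, and all but Gm45819 also overlap a gene on the opposite strand. In all, 21 of 99 genes checked overlap a tested gene on the opposite strand. Among them, Ciart lies wholly within C920021L13Rik and Avpr1a within Gm48877. Per3 lies within Camta1 on the same strand.

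At the other end stood genes of signalling, phospholipid handling and glycogen. Rgs16, a regulator of G protein signalling, ran from 0.0277 to 0.991 CPM (median 0.475) at ZT0 and from 3.06 to 129.7 CPM (median 31.5) at ZT12 (log2 fold change 6.54 ± 0.78 SE, adjusted p = 4.29e-05). The lowest ZT12 value was again that of Cry1/2 WT RF replicate 6, and even that value exceeded every ZT0 library. Usp2, a ubiquitin-specific protease, ran from 3.31 to 7.35 CPM (median 4.3) and then from 50.6 to 105 CPM (median 90.4) (log2 fold change 4.25 ± 0.19 SE, adjusted p = 2.28e-09). Mfsd2a, a transporter of lysophosphatidylcholine, ran from 2.65 to 12.3 CPM (median 4.53) and then from 36.4 to 243 CPM (median 96.1) (log2 fold change 4.28 ± 0.26 SE, adjusted p = 4.91e-08). Lpin1, a phosphatidate phosphatase of triglyceride synthesis, ran from 16.7 to 47.4 CPM (median 36.6) and then from 203 to 1723 CPM (median 448) (log2 fold change 4.08 ± 0.40 SE, adjusted p = 6.64e-06). These 4 genes rose in every library of ZT12, with the widest spread among ZT12 libraries for Rgs16. Ppp1r3g, a glycogen-targeting subunit of protein phosphatase 1, was nearly absent at ZT0 (0 to 0.343 CPM) and ran from 0.369 to 17.9 CPM (median 4.06) at ZT12 (log2 fold change 6.04 ± 0.81 SE, adjusted p = 0.00012).

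Genes listed as direct outputs of the clock were called in a higher share than the 20.4% of all genes. The lists were chosen with earlier results of these data known, so these shares are descriptions, not tests. Called members of the REV-ERB and ROR list were all higher at ZT0, while the E-box and D-box lists held called members on both sides. Of 15 listed E-box targets, 9 were higher at ZT12 and 4 higher at ZT0, with a median of 1.14 on the log2 scale. Por, the electron donor of the microsomal cytochromes P450, ran from 141 to 231 CPM (median 167) at ZT0 and from 471 to 1027 CPM (median 795) at ZT12 (log2 fold change 2.14 ± 0.14 SE, adjusted p = 1.4e-07). Wee1, a kinase that holds back mitosis, ran from 1.8 to 5.76 CPM (median 3.13) and then from 11.9 to 33.3 CPM (median 26.5) (log2 fold change 2.97 ± 0.21 SE, adjusted p = 2.5e-07). Both rose without overlap, as did Nampt, the rate-limiting enzyme of NAD salvage (1.73 ± 0.13 log2), and Gys2, liver glycogen synthase (1.88 ± 0.17 log2). Members of the same list on the other side were Dtx4, above, and Ppp1r3c, another glycogen-targeting subunit, which ran from 129 to 239 CPM (median 173) at ZT0 and from 13.2 to 149 CPM (median 23.6) at ZT12 (log2 fold change -2.12 ± 0.43 SE, adjusted p = 0.00281). Ppp1r3c overlapped between the times through 1 library, Cry1/2 WT RF ZT12 replicate 9 at 149 CPM, and the 2 glycogen-targeting subunits Ppp1r3g and Ppp1r3c changed in opposite directions.

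Of 11 listed REV-ERB and ROR targets, 0 were higher at ZT12 and 8 higher at ZT0, with a median of -2.07, and with the 2 libraries that stood apart left out the counts were 1 and 8. Of the 8, Npas2, Arntl, Clock, Cry1, Elovl3 and Tubb2a are given above. Insig2, which holds the SREBP complex in the endoplasmic reticulum (ER), ran from 216 to 354 CPM (median 282) at ZT0 and from 51.6 to 79.1 CPM (median 68.3) at ZT12 (log2 fold change -2.07 ± 0.08 SE, adjusted p = 3.02e-10). Avpr1a, the vasopressin V1a receptor, ran from 51.8 to 72.2 CPM (median 59.4) and then from 5.65 to 14.3 CPM (median 12.3) (log2 fold change -2.46 ± 0.12 SE, adjusted p = 3.83e-09). For Insig2 the fall was close to the same in all 4 groups, between -2.02 and -2.18. Of 9 listed targets of DBP, TEF and HLF, 4 were higher and 1 lower at ZT12, with a median of 0.06, or 0.36 with the 2 libraries that stood apart left out. Cyp2a5, a cytochrome P450 with near-identical relatives that the counting could split, ran from 195 to 481 CPM (median 336) at ZT0 and from 716 to 2442 CPM (median 1250.2) at ZT12 (log2 fold change 2.07 ± 0.26 SE, adjusted p = 6.61e-05). Alas1, the first enzyme of heme synthesis, had a log2 fold change of 1.67 ± 0.40 (adjusted p = 0.00859). Spon2, a secreted matrix protein, went the other way (-2.20 ± 0.24 log2). The other 4 of the 9 listed D-box targets were not called.

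**Figure D3:**
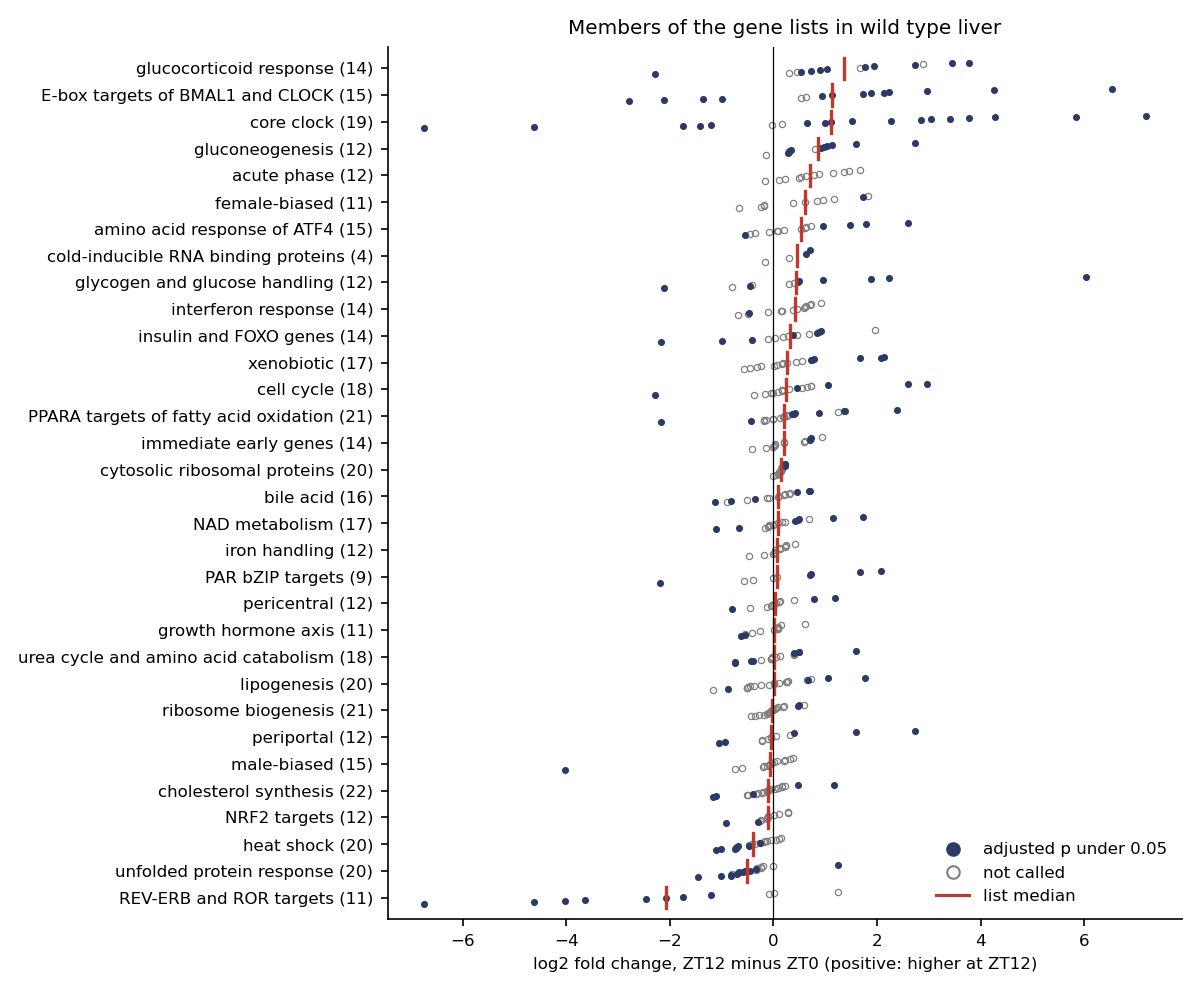
log2 fold change (ZT12 minus ZT0) of each tested member of 32 gene lists in wild type liver; filled points passed the test, open points did not, red bars are list medians and the number tested stands beside each name. Medians run from -2.07 for REV-ERB and ROR targets to 1.36 for the glucocorticoid response, and most metabolic lists hold called members on both sides of 0.

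Most listed genes of glucose output were higher at ZT12. Mice eat little in the light phase, but the labels record no food intake, and its part in these changes was not tested. Of 12 gluconeogenesis genes, 9 were higher at ZT12 and 0 higher at ZT0, with a median of 0.86. Pck1 (chr2:173153048-173159273, plus strand), which encodes the cytosolic PEP carboxykinase, ran from 161 to 1421 CPM (median 487) at ZT0 and from 2844 to 4685 CPM (median 3807) at ZT12 (log2 fold change 2.73 ± 0.32 SE, adjusted p = 4.26e-05). Its highest ZT0 value stayed below its lowest ZT12 value although the ZT0 libraries spread several-fold. Slc37a4, the glucose 6-phosphate transporter, ran from 66.5 to 144 CPM (median 96.2) and then from 156 to 285 CPM (median 221) (log2 fold change 1.13 ± 0.14 SE, adjusted p = 7.39e-05). Foxo1, the insulin-regulated activator of these genes, ran from 29.2 to 46.5 CPM (median 31.8) and then from 50.9 to 81.2 CPM (median 64.2) (log2 fold change 0.91 ± 0.10 SE, adjusted p = 2.86e-05). Sds, serine dehydratase, had a log2 fold change of 1.58 ± 0.27 (adjusted p = 0.00076) with 6 of 8 ZT12 libraries above all ZT0 libraries. Of 12 genes of glycogen and glucose handling, 6 were higher at ZT12 and 2 higher at ZT0 (median 0.44), among them Gys2, Ppp1r3g and Pfkfb3, a regulator of glycolysis (2.24 ± 0.29 log2), on the higher side. Of 14 insulin and FOXO genes, 4 were higher at ZT12, among them Foxo3 (0.88 ± 0.10 log2) and Klf15, a factor of amino acid breakdown in fasting (0.83 ± 0.15 log2), and 3 were higher at ZT0.

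Genes of the glucocorticoid response had a median of 1.36, with 9 of 14 higher at ZT12 and 1 higher at ZT0. The list shares Pck1, Tat and Per1 with other lists. Fkbp5, a chaperone of the glucocorticoid receptor, ran from 15.2 to 42.6 CPM (median 24.6) at ZT0 and from 51.3 to 260.1 CPM (median 82.9) at ZT12 (log2 fold change 1.94 ± 0.20 SE, adjusted p = 1.14e-05), with its highest value in Cry1/2 WT RF replicate 9 at both times. Tat, tyrosine aminotransferase, had a log2 fold change of 1.04 ± 0.20 (adjusted p = 0.00215). The member that fell was Cdkn1a, the cell cycle inhibitor p21, from 9.27 to 17.8 CPM (median 11.2) to 1.04 to 8.97 CPM (median 1.91) (log2 fold change -2.29 ± 0.34 SE, adjusted p = 0.0003). With Cry1/2 WT AL ZT12 replicate 2 and Cry1/2 WT RF ZT12 replicate 6 left out, the list median was 0.84, below those of the E-box targets (1.31) and the core clock (1.12) in the same fit, 8 members were higher at ZT12 and 1 was lower.

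Of 21 PPARA targets of fatty acid oxidation, 7 were higher at ZT12 and 2 higher at ZT0 (median 0.20). The number higher at ZT12 was 13 without Cry1/2 WT AL ZT12 replicate 2 and Cry1/2 WT RF ZT12 replicate 6, the 2 libraries that stood apart, with 2 higher at ZT0 and a median of 0.35. Cpt1a, which controls entry of fatty acids into mitochondria, ran from 209 to 318 CPM (median 229) at ZT0 and from 460.5 to 800.2 CPM (median 654) at ZT12 (log2 fold change 1.38 ± 0.13 SE, adjusted p = 5.57e-06). Angptl4, an inhibitor of lipoprotein lipase, ran from 7.84 to 51.6 CPM (median 15.6) and then from 78.7 to 129.7 CPM (median 98.4) (log2 fold change 2.39 ± 0.26 SE, adjusted p = 2.07e-05). Ppara itself had a log2 fold change of 0.87 ± 0.17 (adjusted p = 0.00186). Pdk4, which shuts pyruvate out of the citric acid cycle, fell instead, from 8.46 to 35.1 CPM (median 17.7) to 2.29 to 6.23 CPM (median 4.51) (log2 fold change -2.17 ± 0.28 SE, adjusted p = 9.38e-05). The 2 textbook fasting genes Cpt1a and Pdk4 thus moved in opposite directions, both without overlap.

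The lists of fat and sterol synthesis held called genes in both directions, and their counts depended on the 2 libraries that stood apart. Of 20 lipogenesis genes, 3 were higher at ZT12 and 1 higher at ZT0 (median 0.01), and with those libraries left out 3 and 4 (median -0.02). Dgat2, the last enzyme of triglyceride synthesis, ran from 302 to 482 CPM (median 404) at ZT0 and from 497 to 764 CPM (median 629) at ZT12 (log2 fold change 0.67 ± 0.10 SE, adjusted p = 0.000213). Elovl5, an elongase of polyunsaturated fatty acids, had a log2 fold change of -0.88 ± 0.19 (adjusted p = 0.00437). Fads2, the delta-6 desaturase, had one of 1.06 ± 0.20 (adjusted p = 0.00167). Of 22 cholesterol synthesis genes, 2 were higher at ZT12 and 3 higher at ZT0 (median -0.11), and 3 and 7 without those 2 libraries (median -0.30). The share called was thus 20% of lipogenesis and 22.7% of cholesterol genes beside 20.4% of all genes, and 35% and 45.5% beside 20.8% without the 2 libraries. Hmgcs1, an early enzyme of the pathway, ran from 177 to 391 CPM (median 255) at ZT0 and from 76.5 to 254 CPM (median 94.3) at ZT12 (log2 fold change -1.12 ± 0.24 SE, adjusted p = 0.00373), and the 2 ranges overlapped.

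The called genes of 2 chaperone lists were higher at ZT0, with 1 exception. Of 20 genes of the unfolded protein response of the ER, 11 were higher at ZT0 and 1 higher at ZT12 (median -0.50), and of 20 heat shock genes 9 were higher at ZT0 and 0 higher at ZT12 (median -0.39). Sdf2l1, an ER cochaperone, ran from 20.3 to 80.5 CPM (median 33) at ZT0 and from 9.11 to 22 CPM (median 11.4) at ZT12 (log2 fold change -1.45 ± 0.28 SE, adjusted p = 0.00186). Syvn1, the ubiquitin ligase HRD1 of ER-associated degradation, ran from 99 to 390.2 CPM (median 121) and then from 63.1 to 94.3 CPM (median 69.4) (log2 fold change -1.02 ± 0.21 SE, adjusted p = 0.00277). Syvn1 did not overlap between the times, and its 390.2 CPM in Cry1/2 WT RF ZT0 replicate 6 stood above the other ZT0 libraries. Herpud1, also of ER-associated degradation, was the member higher at ZT12, from 166 to 396 CPM (median 223) to 371 to 691 CPM (median 581) (log2 fold change 1.25 ± 0.16 SE, adjusted p = 8.07e-05). Hsp90aa1, the inducible cytosolic HSP90, ran from 134 to 257 CPM (median 169) and then from 61.4 to 127 CPM (median 96.3) (log2 fold change -1.02 ± 0.16 SE, adjusted p = 0.000429). The small heat shock gene Hspb1 had a log2 fold change of -1.11 ± 0.18 (adjusted p = 0.00059). Hspb1 had a higher WT mean at night, 29.5 ± 10.8 CPM at ZT16 against 10.7 ± 2.5 at ZT0, while Sdf2l1 averaged 60.5 ± 30.8 and 40 ± 21.2 CPM, a difference within the spread. Of 4 cold-inducible RNA binding proteins, Rbm3 (0.70 ± 0.15 log2) and Cirbp (0.63 ± 0.17 log2) were higher at ZT12, and 1 of the 4 was when the 2 libraries that stood apart were left out (Rbm3).

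Among stress and amino acid genes, 4 of 15 members of the ATF4 response were higher at ZT12 and 1 was higher at ZT0, with a median of 0.54, or 0.24 with the 2 libraries that stood apart left out. Cebpb, a bZIP factor of fasting and acute responses, ran from 19.1 to 53.2 CPM (median 32.6) at ZT0 and from 84.6 to 164 CPM (median 106) at ZT12 (log2 fold change 1.80 ± 0.19 SE, adjusted p = 1.27e-05). Chac1, which degrades glutathione, ran from 0.241 to 2.36 CPM (median 0.964) and then from 2.59 to 19.8 CPM (median 7.11) (log2 fold change 2.59 ± 0.43 SE, adjusted p = 0.000643). Sesn2, a stress-induced inhibitor of TORC1, was higher by 0.95 ± 0.11 log2, whereas Atf4 itself changed by -0.55 ± 0.11 log2 on the ZT12 minus ZT0 scale. The 3 named targets thus rose without overlap while the transcript of the factor fell with overlapping ranges. Of 18 genes of the urea cycle and amino acid catabolism, 4 were higher at ZT12 and 4 higher at ZT0, the latter including Cbs (-0.75 ± 0.13) and Cth (-0.75 ± 0.15), the 2 enzymes of transsulfuration.

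Lists of bile acid, xenobiotic and NAD genes had medians of 0.09 to 0.26 and single members with larger changes. Of 16 bile acid genes, 3 were higher at ZT12 and 3 higher at ZT0 (median 0.10), and 6 and 2 with the 2 libraries that stood apart left out. Abcb11, the bile salt export pump, ran from 755 to 1095 CPM (median 872) at ZT0 and from 278 to 507 CPM (median 423) at ZT12 (log2 fold change -1.14 ± 0.12 SE, adjusted p = 1.01e-05). Abcc2, the export pump for conjugates, rose from 494 to 775 CPM (median 653) to 627 to 1235 CPM (median 1057) (log2 fold change 0.68 ± 0.13 SE, adjusted p = 0.00251). The 2 pumps of the canalicular membrane moved in opposite directions, and the bile acid receptor gene Nr1h4 was higher at ZT12 by 0.46 ± 0.10 log2. Of 17 xenobiotic genes, 6 were higher at ZT12 and 0 higher at ZT0 (median 0.26), and 7 and 1 with those 2 libraries left out. Those higher at ZT12 included Por and Cyp2a5, above, Nr1i2, the receptor PXR (0.74 ± 0.10 log2), and Cyp2e1, the ethanol-oxidising P450 (0.78 ± 0.16 log2). Of 17 genes of NAD metabolism, 5 were higher at ZT12 and 2 higher at ZT0 (median 0.09). Nampt ran from 44.7 to 66.2 CPM (median 56.5) at ZT0 and from 134 to 273 CPM (median 184) at ZT12 (adjusted p = 5e-07). Nmrk1, the nicotinamide riboside kinase, was higher at ZT12 by 1.14 ± 0.12 log2, and Kynu, a kynureninase of the pathway from tryptophan, changed by -0.67 ± 0.10 log2. The salvage enzymes Nampt and Nmrk1 were thus high at ZT12, and Kynu, of the route from tryptophan, was high at ZT0. The other members include 10 of the 17 that were not called.

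Few members were called in the lists of ribosome, immediate early, iron, sex-biased, NRF2 and growth hormone genes, beside 20.4% of all genes; with 11 to 21 genes a list, a share near that value is not a difference from it. Of 21 ribosome biogenesis genes 2 were higher at ZT12, namely the nucleolar proteins Ncl (0.48 ± 0.09 log2) and Npm1 (0.49 ± 0.09 log2), and of 20 cytosolic ribosomal protein genes 3 were higher at ZT12 (1 with the 2 libraries that stood apart left out), with a list median of 0.15. Of 14 immediate early genes 2 were higher at ZT12, among them Zfp36 (0.70 ± 0.14 log2), and 1 with those libraries left out. Of 12 iron handling genes 0 were called (1 with those libraries left out), of 15 male-biased genes 1 (Elovl3), of 11 female-biased genes 1 and of 12 NRF2 targets 2. Of 11 growth hormone axis genes, the 2 that were called were Stat5a (-0.63 ± 0.15 log2) and Stat5b (-0.56 ± 0.11 log2), both higher at ZT0. Cell cycle genes were called in 5 of 18 cases (27.8%), 4 higher at ZT12 and 1 higher at ZT0. Ccne1, cyclin E1, was among the former and ran from 0.198 to 1.33 CPM (median 0.593) at ZT0 and from 1.7 to 9.89 CPM (median 3.88) at ZT12 (log2 fold change 2.60 ± 0.35 SE, adjusted p = 0.000124). A missed call does not show that a gene is the same at both times.

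Markers of other liver cells were called in small numbers, beside 20.4% of all genes. With 2 to 12 genes a list, such counts are not read as a difference from that share. Only 4 of 9 listed neutrophil, 2 of 5 adipocyte and 3 of 10 exocrine pancreas markers passed the filter. Of 10 Kupffer cell, 4 neutrophil, 10 endothelial, 6 erythroid and 2 adipocyte markers tested, 0 were called (edgeR), and the summed Kupffer level ran from 167 to 912 CPM at ZT0 and from 241 to 1227 CPM at ZT12. Exceptions were 2 of 7 cholangiocyte markers, among them Sox9 (-1.68 ± 0.27 log2, adjusted p = 0.000602), Cd4 (-1.40 ± 0.23 log2, adjusted p = 0.000587) among 11 B and T cell markers and Cela1 (-0.93 ± 0.23 log2) among 3 exocrine pancreas markers, all higher at ZT0, and 1 of 11 stellate cell markers. With the 2 libraries that stood apart left out, 2 endothelial markers and 1 adipocyte marker were called as well. Of 10 hepatocyte markers 2 were higher at ZT12 (1 with those libraries left out). Of 12 pericentral genes 2 were higher at ZT12, among them the glutamate transporter gene Slc1a2 (1.19 ± 0.16 log2), and 1 was higher at ZT0, the WNT target Axin2 (-0.79 ± 0.21 log2). Of 12 periportal genes 3 were higher at ZT12 and 2 higher at ZT0, the latter Hal, histidine ammonia-lyase (-0.94 ± 0.16 log2), and Cdh1, E-cadherin (-1.06 ± 0.20 log2). The defining pancreatic gene Ctrb1 was at 0 or under 1 CPM in all 16 libraries. Of 12 acute phase genes 0 were called in the time comparison, although their summed level reached 94870 CPM in the highest ZT12 library against 15980 CPM in the highest ZT0 library. Of 14 interferon genes 1 was called (Stat2, -0.47 ± 0.12 log2), and with the 2 libraries that stood apart left out 4 were, all higher at ZT0.

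The question of whether the change depends on feeding or line was addressed next. The direction was the same in all 4 groups for 3077 of the 3225 called genes (95.4%) and for 660 of the 673 with at least a 2-fold change (98.1%), against 5910 of all 15772 genes (37.5%). The calls rest on the same libraries, so these shares are descriptions, not tests. Across all genes tested, the log2 fold changes of 2 groups had Pearson correlations of 0.202 (Cry1/2 AL with Cry1/2 RF) to 0.594 (Bmal1 RF with Cry1/2 RF), a description over genes that are not independent. With 2 libraries against 2, the groups alone called 236 (Bmal1 AL), 159 (Bmal1 RF), 137 (Cry1/2 AL) and 51 genes (Cry1/2 RF).

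**Figure D4:**
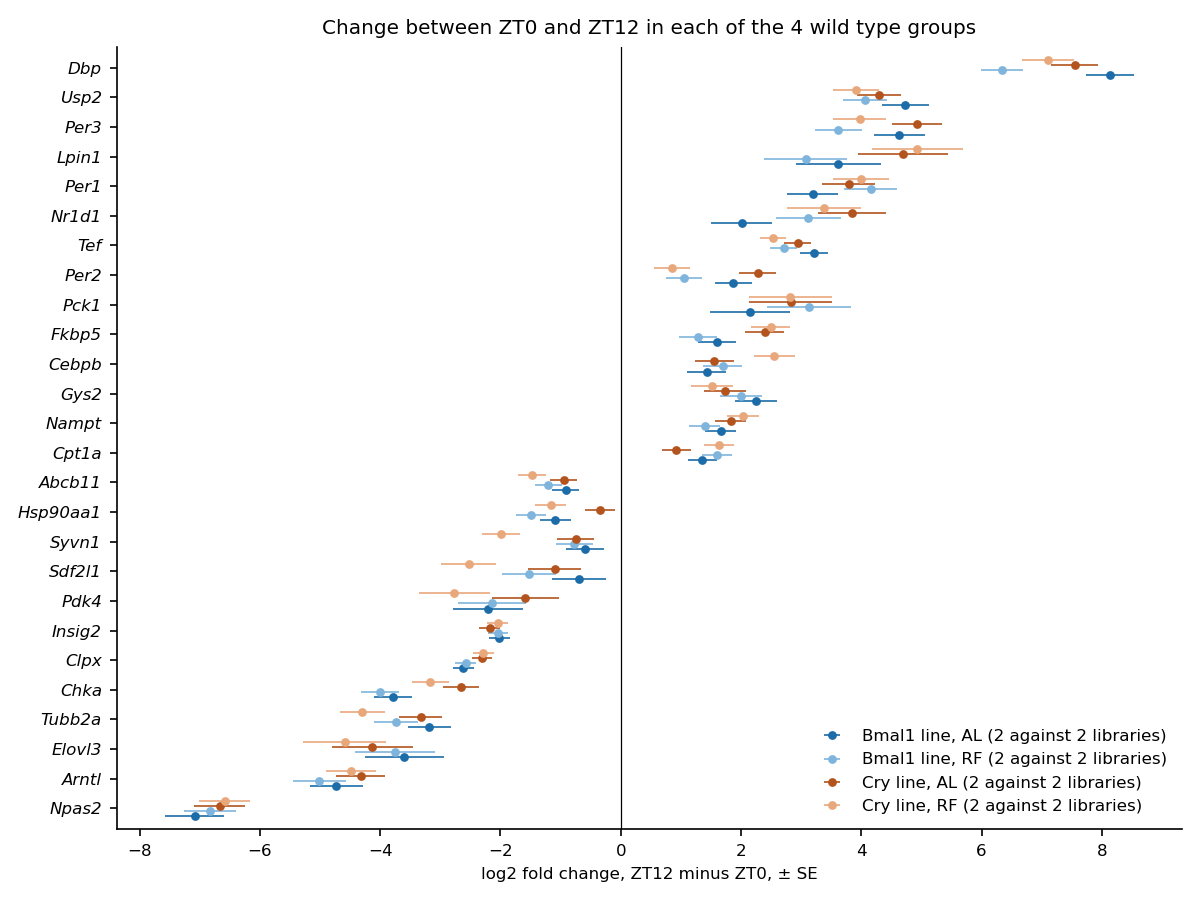
log2 fold change between ZT0 and ZT12 (points, with SE as bars) of 26 genes in each of the 4 wild type groups of 2 against 2 libraries. Each gene has all 4 points on the same side of 0, which the naming rule required of those named for the highest or lowest changes. The 4 points of Insig2 and of Clpx lie close together and Per2 shows larger values in the 2 AL groups.

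The change itself was compared between feedings, as RF minus AL in the ZT12 minus ZT0 difference, and between lines. For feeding, edgeR called 0 of 15772 genes (0%), with a smallest adjusted p of 0.381 and 1721 genes (10.9%) at an unadjusted p under 0.05. limma-voom called 0 and DESeq2 63. The edgeR count was not stable when 1 library was left out, and it rose most without Cry1/2 WT RF ZT12 replicate 9. That fit leaves replicate 6, the library with 21910 CPM of Saa1, as the only library of its group and time. For line, edgeR called 0 genes (0%), with 571 (3.62%) at an unadjusted p under 0.05, limma-voom called 0 and DESeq2 1. In the core clock, Per2 had the smallest p for feeding. Its ZT12 minus ZT0 changes in the Bmal1 and Cry1/2 lines were 1.87 and 2.28 under AL and 1.05 and 0.85 under RF, a difference of -1.13 ± 0.30 SE (unadjusted p = 0.00258, adjusted p = 0.392). Dbp changed by 8.13 and 7.55 under AL and 6.34 and 7.10 under RF (-1.12 ± 0.41 SE, adjusted p = 0.423). Arntl changed by -4.73 and -4.32 under AL and -5.01 and -4.49 under RF (-0.22 ± 0.40 SE, adjusted p = 0.874). Per2 and Dbp thus had larger changes in both AL groups than in both RF groups, which did not pass the adjustment over all genes. An unadjusted edgeR p under 0.05 for feeding was found for 11 of 12 acute phase genes and 10 of 10 Kupffer cell markers. It was also found for 6 of 19 core clock, 9 of 20 lipogenesis and 9 of 20 unfolded protein response genes. Of 20 cytosolic ribosomal protein genes and of 10 endothelial markers 0 had one, beside 10.9% of all genes. None passed the adjustment. The library with 21910 CPM of Saa1 belongs to the RF ZT12 groups, and a fit without it also leaves 1 library in its group and time.

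The ZT12 minus ZT0 change was also compared between knockout and WT liver, without BMAL1 or without both CRY proteins. These comparisons use the WT libraries described above, 4 against 4 per genotype within a line, so they are no independent support for the WT values. The change differed between Bmal1 KO and WT for 168 of 15772 genes (1.07%) and between Cry1/2 dKO and WT for 252 (1.6%). Of these, 160 and 221 were also called between the times in WT liver, each with a difference opposite in sign to the WT change, and the other 8 and 31 were not called in WT. Of the core clock, 11 of 19 and 12 of 19 genes were called, and 0 of 12 gluconeogenesis genes in either. Beside 1.07% and 1.6% of all genes, 0 of 12 is not read as a difference from those shares. Of 20 unfolded protein response genes, 0 were called for Bmal1 KO (edgeR) and 9 for Cry1/2 dKO, and the difference between the knockouts was not tested. A Bmal1 KO library, RF ZT0 replicate 4, held 7520 CPM of Saa1, and without it and the 2 WT libraries that stood apart the counts were 173 and 154 genes, 11 and 11 of the core clock and 0 and 1 of the unfolded protein response. The count for Cry1/2 dKO ranged from 117 to 324 with 1 library left out, and 5 of the 32 libraries moved it by over 1.5 times. It was 117 without Cry1/2 WT RF ZT0 replicate 6, 125 without Cry1/2 WT AL ZT0 replicate 4, 137 without Cry1/2 WT AL ZT12 replicate 2, and 156 or 149 without Cry1/2 dKO RF ZT0 replicate 3 or 5. A gene that missed the test in a knockout may still differ there.

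Dbp lay at different levels in the 2 knockouts, and in each its ranges at ZT0 and ZT12 overlapped. The change within a knockout was not tested by itself. In Bmal1 KO liver it ran from 1.63 to 3.16 CPM at ZT0 and from 2.13 to 4.14 CPM at ZT12. In Cry1/2 dKO liver it ran from 67.3 to 91.4 and then from 47.6 to 77.3 CPM. The WT ranges were 0.283 to 1.2 CPM at ZT0 and 47.7 to 161 CPM at ZT12, so the first lay just above the WT level of ZT0 and the second near that of ZT12 at both times. The difference of the change was -7.11 ± 0.34 SE, adjusted p = 5.1e-11 in Bmal1 KO and -7.71 ± 0.35 SE, adjusted p = 1.64e-11 in Cry1/2 dKO liver. Arntl, read at 9.7 to 21 and then 11.1 to 17.5 CPM in Bmal1 KO and at 6.81 to 8.57 and then 8.78 to 10.7 CPM in Cry1/2 dKO liver, lay above the WT ZT12 range and below the WT ZT0 range at both times (4.81 ± 0.35 SE, adjusted p = 3.51e-08 and 4.68 ± 0.35 SE, adjusted p = 6.47e-08). Gene counts do not resolve a deleted exon, so the Arntl reads of the Bmal1 KO check the label only in part. Npas2 was high at both times in Bmal1 KO (25.5 to 53.6 and then 32.1 to 40.9 CPM; 7.06 ± 0.40 SE, adjusted p = 3.17e-09) and at or under 0.0717 CPM in all 8 Cry1/2 dKO libraries, where 2 cells of 0 counts left no usable fit.

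**Figure D5:**
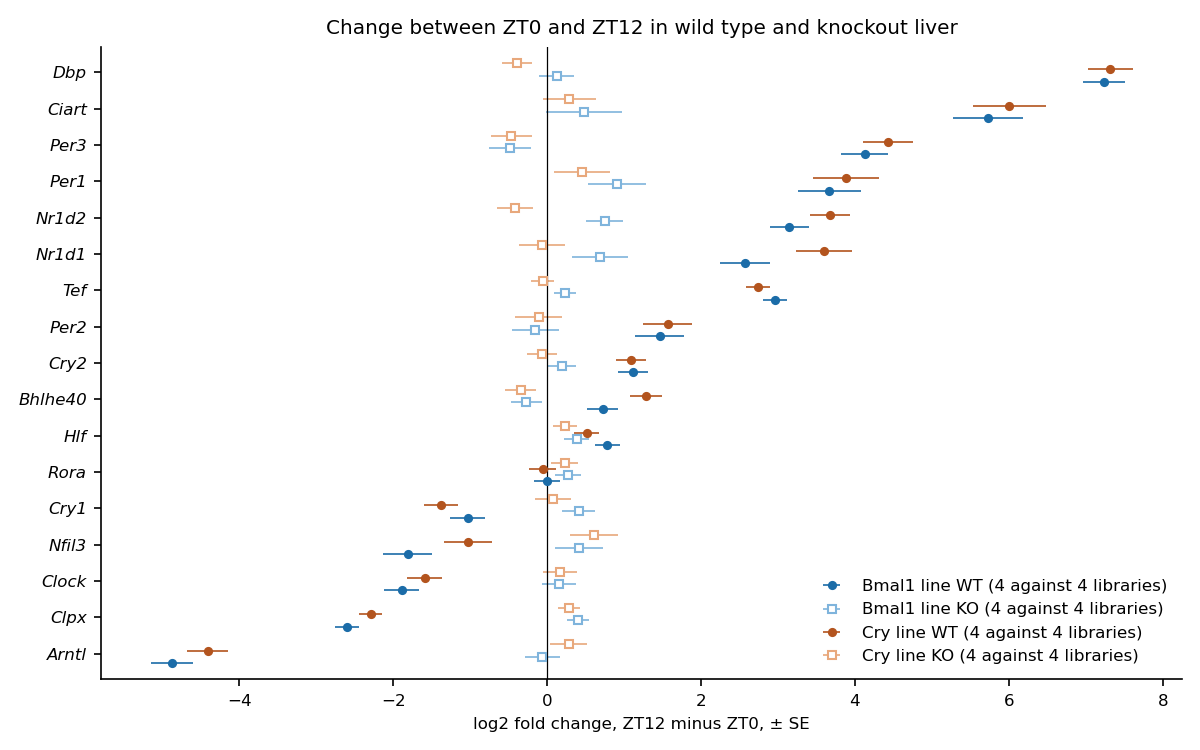
log2 fold change between ZT0 and ZT12 with SE for 17 genes, as 4 against 4 libraries, in WT (filled circles) and knockout (open squares) liver of the Bmal1 (blue) and Cry1/2 (brown) lines. Core clock genes without a usable SE in every group, Npas2 among them, are not drawn. The WT points drawn run from below -4 for Arntl to above 7 for Dbp, and all knockout points drawn lie between -1 and 1.

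Tef and Per3 also lost most of their change: it differed from WT in Bmal1 KO by -2.73 ± 0.21 SE, adjusted p = 5.62e-08 and -4.61 ± 0.41 SE, adjusted p = 5.63e-07, and in Cry1/2 dKO by -2.79 ± 0.21 SE, adjusted p = 6.47e-08 and -4.90 ± 0.41 SE, adjusted p = 3.08e-07. Clpx, not a clock gene, differed likewise, by 3.00 ± 0.21 SE, adjusted p = 1.61e-08 and 2.58 ± 0.21 SE, adjusted p = 1.91e-07. Pck1 had a change of 0.97 ± 0.47 log2 in Bmal1 KO and of 0.95 ± 0.47 in Cry1/2 dKO liver, against 2.64 ± 0.49 and 2.82 ± 0.49 in the WT of each line. Neither difference passed the test (adjusted p = 0.392 and 0.183). Cpt1a had 1.12 ± 0.23 and 0.33 ± 0.23 against 1.48 ± 0.23 and 1.28 ± 0.23, again with no called difference (adjusted p = 0.873 and 0.164). For these 2 genes of fasting metabolism the change in the knockouts lay between 0 and the WT value and was not separated from the latter by the test.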

How the data were processed

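Polyadenylated RNA of mouse liver was sequenced as stranded paired-end libraries, per the labels' protocols. The authors deposited 1 table of raw counts per gene for all 96 libraries, and the submitters' processing notes name STAR 2.4.0i and mm10. No source used here records the counting program, its strand setting or the annotation. The table held 55421 identifiers, of which 35670 had a count, and CPM were computed here from the counts, library totals and TMM factors. Genes were kept with filterByExpr (minimum count 10, minimum total 15) over all libraries, leaving 15772 with 99.94% of the counts. The 16 wild type libraries of ZT0 and ZT12 (5029979 to 35568856 counts) were fitted with edgeR 4.0.16 (R 4.3.3, limma 3.58.1), with 4 line-feeding blocks and time, by the quasi-likelihood test with Benjamini-Hochberg adjustment over all 15772 genes. Differences of the time change between feedings or lines (16 libraries) and between knockout and wild type (32 libraries) were contrasts of cell means. SE is the standard error of a log2 fold change.

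Named genes were the core clock, the 12 highest and 12 lowest changes among called genes of at least 5 CPM with 1 direction in all 4 groups, up to 4 genes of smallest p per list, and up to 5 per difference test. A few listed genes count in the totals but are not reported here by name. Members and lists were chosen with earlier results of these data known. Alternatives were RLE or subset TMM scaling, 3 other filters, limma-voom, DESeq2 1.42.0, a replicate block, all 48 wild type libraries, groups alone or left out, and each library left out. Leaving out libraries with over 5000 CPM of Saa1, 50 CPM of Isg15 or 40 CPM of Ctrb1 was chosen after seeing the data. Libraries of a group differed by more than sampling noise (chi-square per degree of freedom 11.87 to 410.1), so none was counted as a duplicate.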

Additional observations from a re-analysis of the deposited data

Results flagged for a closer look

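In 31 of 190 sets of 8 libraries (95 named genes at 2 times, 16.3%) the highest or lowest library lay far from the other 7 of its time, with a gap past Dixon's critical value. For 8 values of 1 normal population, chance alone does so in about 1 of 20 sets. CPM values from 4 line-feeding groups need not follow that form, so the 2 shares are not a test. The genes also share libraries and are not independent. Bmal1 WT RF ZT0 replicate 4 was the highest for Arntl (45 CPM, next 35.3), Ppp1r3g (0.343 CPM, next 0.12), Fads2 (628 CPM, next 487), Foxo1 (46.5 CPM, next 35.9), Sds (126 CPM, next 74.8), Cth (903 CPM, next 586) and Cbs (784 CPM, next 623). Cry1/2 WT RF ZT12 replicate 6 was the highest for Nfil3 (49.8 CPM, next 24.1), Dhrs9 (2.4 CPM, next 0.916), Chac1 (19.8 CPM, next 10.1), Cdkn1a (8.97 CPM, next 3.58) and Sox9 (10.3 CPM, next 5.24) and the lowest for Abcc2 (627 CPM, next 966). Bmal1 WT AL ZT12 replicate 1 was the highest for Bhlhe41 (6.99 CPM, next 4.06), Dbp (161 CPM, next 99.6), Spon2 (5.72 CPM, next 2.68) and Ccne1 (9.89 CPM, next 4.56). Cry1/2 WT RF ZT12 replicate 9 was the highest for Ppp1r3c (149 CPM, next 71.3), Alas1 (2319.6 CPM, next 1087) and Fkbp5 (260.1 CPM, next 131). Bmal1 WT AL ZT0 replicate 1 was the highest for Nfil3 (84.9 CPM, next 57.1) and Angptl4 (51.6 CPM, next 27.6). Cry1/2 WT AL ZT0 replicate 2 was the highest for Cdkn1a (17.8 CPM, next 12.1) and the lowest for Tubb2a (85.9 CPM, next 136). Bmal1 WT AL ZT12 replicate 8 was the highest for Hspb1 (9.63 CPM, next 5.04) and the lowest for Ncl (144 CPM, next 209). Cry1/2 WT AL ZT12 replicate 2 was the highest for Stat2 (134 CPM, next 75.6). Cry1/2 WT RF ZT0 replicate 6 was the highest for Syvn1 (390.2 CPM, next 207). Cry1/2 WT RF ZT0 replicate 9 was the highest for Fkbp5 (42.6 CPM, next 27.8). Bmal1 WT RF ZT12 replicate 2 was the highest for Slc1a2 (467 CPM, next 313). Cry1/2 WT AL ZT12 replicate 4 was the highest for Cd4 (2.95 CPM, next 1.44). Of these libraries, Cry1/2 WT RF ZT12 replicate 6 was also the one with 21910 CPM of Saa1, and its part in the values was not tested.

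The change between ZT0 and ZT12 differed between genotypes by the edgeR test of the difference itself for 168 genes in the Bmal1 line and 252 genes in the Cry1/2 line. In Bmal1 KO minus WT the named differences on the log2 scale were 4.81 for Arntl, 7.06 for Npas2, -4.61 for Per3, -7.11 for Dbp, -2.73 for Tef and 3.00 for Clpx. In Cry1/2 dKO minus WT they were 4.68 for Arntl, -4.90 for Per3, -7.71 for Dbp, -2.79 for Tef and 2.58 for Clpx.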

How the results depend on the processing

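The count of 3225 genes called between ZT0 and ZT12 stayed within 1.5 times under every setting for all libraries (2889 to 4063) and with 1 library left out (2606 to 3424; 1332 to 1776 higher at ZT12, 1274 to 1648 higher at ZT0, 624 to 715 at least 2-fold). Leaving out Bmal1 WT RF, which removes 4 of the 16 libraries, gave 1520 (806 higher at ZT12, 714 higher at ZT0). Groups of 2 against 2 gave 236 (120 and 116; 234 at least 2-fold) in Bmal1 AL, 159 (63 and 96; 151) in Bmal1 RF, 137 (74 and 63; 124) in Cry1/2 AL and 51 (20 and 31; 51) in Cry1/2 RF. In Bmal1 AL alone Dusp1 had a log2 fold change of -0.0469 (adjusted p = 0.974), against 0.73 in the full fit.

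Of the 120 called genes that met the naming rule, not all of which are described above, 100 kept the call under every setting other than a group alone. Of the other 20, 12 lost it only with a line-feeding group left out (Alas1, Axin2, Cela1, Rbm3 and Stat2 among them), and 8 under other settings too, such as a single library left out. Of 30 settings, Rpl3 was called in 9, Rpl5 and Asgr1 in 11, Dusp1 in 12, Rps14 in 14, Acot3 and Pdgfrb in 18 and Cirbp in 26.

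The feeding difference (0) became 12 with all 48 WT libraries, 63 with DESeq2, 992 with no filter, 1 with the replicate block and 0 to 477 with 1 library left out, 477 being without Cry1/2 WT RF ZT12 replicate 9. The line difference (0) became 1 with DESeq2, 275 with no filter and 0 to 4 with 1 library left out. The Bmal1 KO difference (168) became 309 with DESeq2, 633 with no filter and 114 to 197 with 1 library left out. The Cry1/2 dKO difference (252) became 570 with DESeq2, 804 with no filter, 433 with the replicate block, 154 without the 3 libraries that stood apart (2 WT and Bmal1 KO RF ZT0 replicate 4) and 117 to 324 with 1 library left out. The cause of these moves was not tested.

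Same-numbered libraries of ZT0 and ZT12 had correlations of their deviations of 0.0479 (Bmal1 AL), 0.154 (Bmal1 RF), 0.104 (Cry1/2 AL) and -0.0864 (Cry1/2 RF), so the numbers were not taken to pair them, and with the replicate block 2889 genes were called between the times. Depth limits genes near 5 CPM most in Cry1/2 WT RF ZT0 replicate 9, where that level is 25.2 reads. With 2 libraries per cell, the tests of a difference between feedings or lines rest on 8 residual degrees of freedom.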

Other observations

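The 12 largest differences in CPM in each direction among called genes, a choice made after the values were seen, include genes given above and others named here. Cyp2e1 rose from 5418 ± 1226 CPM (SD, n = 8) at ZT0 to 9289 ± 2131 at ZT12, the largest difference of all. Mat1a, which makes S-adenosylmethionine, rose from 2463 ± 555.5 to 3630 ± 857.6 CPM, and Bhmt, which returns homocysteine to methionine, fell from 2679 ± 881.2 to 1089 ± 248 CPM (log2 fold change -1.24 ± 0.19 SE, edgeR adjusted p = 0.000297) with no overlap between the times. These 2 genes of methionine metabolism thus moved in opposite directions.

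Slc38a3, a glutamine transporter, rose from 1081 ± 238.2 to 2140 ± 445.2 CPM, and Slc7a2, a transporter of cationic amino acids, from 469.3 ± 288.3 to 1434 ± 371.8 CPM. Upp2, a liver uridine phosphorylase, rose from 81.2 to 340.7 CPM at ZT0 to 533.8 to 1900 CPM at ZT12 (log2 fold change 2.74 ± 0.30 SE, edgeR adjusted p = 2.26e-05), with every ZT12 library above every ZT0 library. In the other direction, Coq8a, an atypical kinase of coenzyme Q synthesis, fell from 532.5 ± 127.8 to 132.9 ± 37.6 CPM (-2.01 ± 0.19, edgeR adjusted p = 3.48e-06), and Crot, the peroxisomal carnitine octanoyltransferase, from 763 ± 136.2 to 373.9 ± 82.1 CPM (-1.03 ± 0.14, edgeR adjusted p = 0.000163). Neither overlapped between the times. Crot fell while Cpt1a, the mitochondrial enzyme, rose.

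By transcript type, 22.7% of lincRNAs were called, 11.1% of 504 antisense RNAs and 6.04% of 447 processed pseudogenes. Among 375 loci of the annotation class TEC, 8 were higher at ZT12 and 41 higher at ZT0.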
